A study of Brassica napus with 9 samples.

Results

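The C2_C3 comparison sets whole developing pods of the rapeseed (*Brassica napus*) cultivar Youngsan at 25 DAF against pods of the same cultivar at 45 DAF. Youngsan is the non-transgenic control of the series and the parent of its transgenic lines. The comparison was taken over the 91830 genes of the table, of which 6899 passed the minimum described below. It uses 2 of the 9 libraries, C2 (25 DAF) and C3 (45 DAF), while C1 (8 DAF) is given as an earlier value. The other libraries came from homozygous plants with an acyl-ACP thioesterase of *Cuphea* under the seed-specific *Napin* promoter, CpFatB4 (42 at 25 DAF and 43 at 45 DAF) and CpFatB5 (52 and 53 at the same stages). All plants were grown in a greenhouse, and pod wall and seeds were extracted together. RNA from 3 independent preparations was pooled in equal amounts for each library, so each line and stage has 1 library, there is no replicate, and no p-value or SD between plants could be given. The stage is given as days after fertilization in the sample descriptions and as days after flowering in the study, and DAF stands for both.

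Each library has 2 columns of counts (S1 and S2), which were treated as repeat measurements. They summed to 88259440 counts in C2 and 69569296 in C3. No raw value is below 1, a constant that was left in place, so a raw value of 1 was read as no read. Counts were scaled by median-of-ratios size factors, and the level of a gene in a library is the mean of its 2 scaled columns, called the normalized count. A gene rose or fell, in the wording used here, when its normalized count changed at least 2-fold from C2 to C3, a log2-fold change of 1 or -1, and averaged at least 1000 over both. The fold and the minimum follow the study's description of its DEGs, which does not say over which libraries the average was taken, and its false discovery filter was not applied. Values under 3 were set to 3 for a fold change. Genes are named by the *Arabidopsis* gene they resemble in the study's tables, and the copies of 1 such gene were also summed, with the same limits applied to the sum. Intervals in brackets are 95% Wilson intervals of the ratio on the log2 scale and cover counting error only, not the difference between plants. Over the genes past the minimum, the log2-fold change from the first columns and that from the second differed with an SD of 0.0658.

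A rapeseed pod at 25 DAF encloses embryos that are filling with oil and storage protein. In the oil pathway, sucrose is cleaved and converted to pyruvate, plastids make acetyl-CoA and build it into fatty acids, and the endoplasmic reticulum modifies these and joins them to glycerol as triacylglycerol (TAG). TAG is packed in oil bodies coated with oleosin, caleosin and steroleosin. Late in maturation, embryos of *Arabidopsis* and its relatives stop filling and make LEA proteins, which protect cells during drying, and later still store the enzymes that will break oil down at germination. Regulators such as LEC1, FUS3, ABI3 and WRI1 are known from *Arabidopsis* to direct these phases. Because whole pods were extracted, a lower share of one tissue and less RNA of a gene per cell cannot be told apart.

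Of the 6899 genes past the minimum, 1617 rose and 1456 fell, so that 44.5% were called, 23.4% as rises and 21.1% as falls. These percentages are the background for the counts of each gene group below. With the minimum applied to the higher library instead of the mean, 4643 genes were called, 2504 as rises and 2139 as falls. The study reports the same number of rises and nearly the same number of falls for this comparison. The minimum on the mean used here is thus stricter than the one its counts match. Of 225 sums over copies past the minimum, 138 were called (61.3%), 60 as rises (26.7%) and 78 as falls (34.7%). The 175 sums that belong to the lipid gene table had 97 calls (55.4%), 34 rises (19.4%) and 63 falls (36%). Log2-fold changes of the 6899 genes had a median of 0.03 and an SD of 2.25. A log2-fold change of at least 2 was found for 717 rises, and one of at most -2 for 643 falls. The tails differed in length, since 116 genes rose by 8 or more on the log2 scale while 20 fell by 8 or more. For 90 genes the normalized count went from under 10 at 25 DAF to 1000 or more at 45 DAF, and for 26 genes it went the other way. Of the 20 genes with the largest counts in each library, 5 were shared by C2 and C3.

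**Figure D1:**
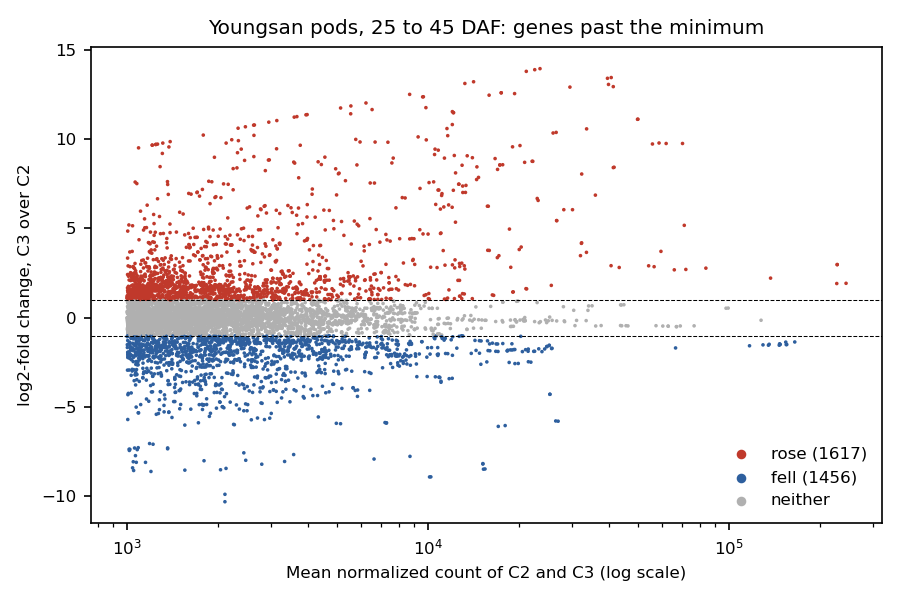
Each point is 1 of the 6899 genes past the minimum, with the mean normalized count of C2 and C3 on the x axis (log scale) and the log2-fold change, C3 over C2, on the y axis; dashed lines mark 1 and -1. The 1617 rises reach beyond 12 on the y axis, whereas the lowest of the 1456 falls lies at -10.30.

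Levels of genes fixed as markers of pod tissues are given here for both libraries. Embryo genes were abundant at both stages: the napin gene BnaC01g43250D had 237761 normalized counts in C2 and 92884 in C3, and the oleosin gene BnaA08g14540D had 19137 and 124565. Genes of the nuclear photosystem, which mark green tissue, were present and lower at 45 DAF, as described below, and GLK1 and GLK2, regulators of chloroplast genes, summed to 157 and 617 in C2 and to 27.4 and 352 in C3. Genes that mark the seed coat were low at 45 DAF. The copies of TT2, a regulator of seed coat pigment, had at most 114 normalized counts in C2 and 10.1 in C3, and those of TT8, its partner, at most 154 and 49.3, so that none of them reached the minimum. The surface wax genes CER1 and CER6 summed to 1091 and 1565 in C2, and in C3 CER1 had 51.5 while CER6 stood at a log2-fold change of -3.30. These shifts between marker sets ran alongside the group results below, and their part in those results was not tested.

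Among the regulators of the seed programme, ABI3 rose while LEC1 and WRI1 fell. Both copies of ABI3, a regulator of maturation and desiccation tolerance, had no read above the constant in C1. BnaA03g37510D had 1062 and 1059 normalized counts in the 2 columns of C2 and 3294 and 3280 in those of C3, a log2-fold change of 1.63 (1.54 to 1.73). Its counterpart BnaC03g44820D, with 943 in C2 and 2916 in C3, also had a change of 1.63. The 6 copies of LEC1, which sets up the embryo programme, summed to 2576 and 2516 in the columns of C2 and to 11.2 in both columns of C3, a log2-fold change of -7.83 (-8.71 to -6.95). Part of the LEC1 sum in C3 is the constant, and with 1 subtracted from every count the change was -9.10. WRI1, the activator of glycolysis and fatty acid synthesis genes, went from 5369 to 578 as the sum of 4 copies, a change of -3.22 (-3.35 to -3.09). Its 3 larger copies were within 1732 to 1753 in C2 and within 175 to 204 in C3. The copies of LEC1 and WRI1 stayed under the minimum singly and passed it as sums.

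FUS3 summed to 1078 and 559, bZIP67 to 967 and 584, and LEC2 to 135 and 6.72 in C2 and C3. ABI4 had 371 in C3, a log2-fold change of 1.22. These sums were under the minimum. The FUS3 copies differed, with log2-fold changes of -0.74 for BnaA02g28280D and BnaC02g36350D and of -1.36 and -1.41 for BnaA06g32660D and BnaC07g48930D. PICKLE, a chromatin remodeler that represses the embryo programme in seedlings, rose from 3071 to 6979 (1.18, 1.13 to 1.24). VAL1, a repressor of the same programme, had 1936 and 2608, and ASIL1, another one, had 1338 and 1122, which are neither rises nor falls.

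**Figure D2:**
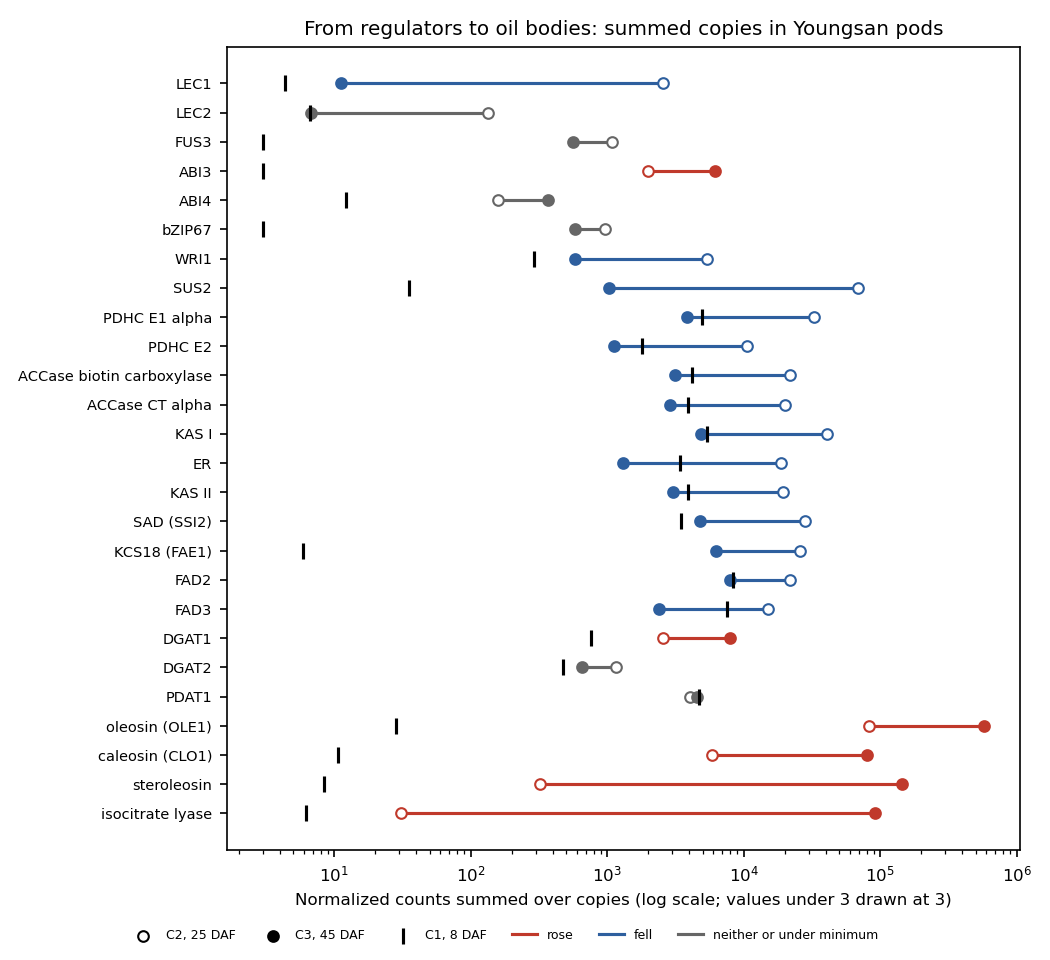
Normalized counts summed over the copies of each gene, in C2 (open circles), C3 (filled circles) and C1 (ticks), on a log axis, from regulators at the top to oil body proteins and isocitrate lyase at the bottom. LEC1, WRI1, SUS2 and the fatty acid genes end left of where they began, and ABI3, DGAT1 and the oil body genes end right of it.

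RNA of SUS2, at the entry of sucrose into the pathway, was lower at 45 DAF. Sucrose synthase SUS2, which cleaves imported sucrose, had 35616 and 35439 normalized counts in the columns of C2 for BnaC07g27090D and 542 in each column of C3. The other copy, BnaA06g29670D, went from 33720 to 498. The sum of both copies fell by 6.06 on the log2 scale (-6.15 to -5.96), and in C1 it had been 35.3, so that the level of C2 was a peak between 2 low stages. The study picked the SUS2 genes on these libraries, so they are not independent evidence of a direction.

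The plastid steps from pyruvate to fatty acid fell together. Of 43 genes of plastidial fatty acid synthesis past the minimum, 40 fell and 0 rose, with a median of -3.06, against 21.1% falls over all genes. Plastid pyruvate dehydrogenase, which makes acetyl-CoA from pyruvate, had 16 falls among 16 genes (median -3.18). The sum for its E1 alpha subunit went from 32819 to 3859 and that for the E2 gene AT3G25860 from 10636 to 1118. Acetyl-CoA carboxylase, which commits acetyl-CoA to fatty acids, had 8 falls among 8 genes of its nuclear-encoded plastid subunits (median -2.80). Its biotin carboxylase went from 21892 to 3135 and its carboxyltransferase alpha subunit from 20182 to 2910. Within this enzyme the 2 carrier proteins differed, with sums falling by 4.14 for AT5G15530, the carrier of seeds in *Arabidopsis*, and by 2.24 for AT5G16390.

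Fatty acid synthase, which lengthens the chain on acyl carrier protein, had 20 falls among 21 genes (median -2.78). The condensing enzyme KAS I had sums of 41098 and 40271 in the columns of C2 and 4811 and 4853 in those of C3, a change of -3.07 (-3.12 to -3.03). Enoyl-ACP reductase, ER, which closes each round, fell furthest of the synthase genes past the minimum, from 18830 to 1301 (-3.86, -3.94 to -3.77). KAS II, which makes the longest plastid chains, went from 19323 to 3033, and the reductase KAR AT1G24360 from 16516 to 2653. The gene past the minimum that did not fall was 1 copy of another KAR, AT3G55310, at -0.13. An acyl carrier protein gene, AT5G27200, went from 644 to 3.36 as a sum under the minimum, while the mitochondrial carrier AT2G44620 had 1456 and 1249. The levels of C3 were close to those of C1 for several enzymes, with 5388 in C1 for KAS I and 4173 for biotin carboxylase.

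Desaturation and elongation fell less evenly. Of the stearoyl-ACP desaturases, which put the first double bond into stearate, 6 of 9 genes past the minimum fell and 0 rose (median -2.29). SSI2 (AT2G43710) went from 28102 to 4780, and AT5G16240 from 4512 to 588. AT3G02630 went from 19634 to 9449 as a sum (-1.06), a call that was lost with size factors taken from abundant genes, while its 3 copies past the minimum lay between -0.89 and -0.76. AT3G02610, which had 2.20 in C1 and 3260 in C2, dropped to 37.0. Both copies of FAE1 past the minimum (KCS18), which elongates oleate toward erucic acid, fell by 2.05, BnaA08g11130D from 12982 to 3133 and BnaC03g65980D from 12682 to 3069. The endoplasmic reticulum desaturase FAD2, which makes linoleate, went from 21870 to 7951 (-1.46, -1.50 to -1.42). FAD3, which makes linolenate from it, fell further, from 14986 to 2399 (-2.64, -2.71 to -2.58), in each of 5 copies past the minimum (-2.78 to -2.52). FatA, the thioesterase that releases oleate, went from 1728 to 573 for AT3G25110 (-1.59), and FatB, which prefers saturated chains, from 6200 to 4373, which is not a fall. The 14 listed acyl-ACP thioesterase genes hold further genes beyond these sums, and together went from 9620 to 5119 (-0.91). The acyl-CoA synthetase LACS9, an enzyme of the plastid envelope, went from 10456 to 1719 (-2.60).

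TAG assembly did not follow fatty acid synthesis. DGAT1, which adds the last acyl chain to make TAG, rose from 2576 and 2550 in the columns of C2 to 8016 and 7965 in those of C3 as the sum of 3 copies (1.64, 1.58 to 1.70). Each copy rose, BnaA07g36000D by 1.73, BnaCnng52810D by 1.74 and BnaAnng30990D by 1.34. The other acyltransferases stayed within 2-fold: PDAT1, which takes an acyl chain from phospholipid, had 4056 and 4546, DGAT3 had 3915 and 4839, the lysophosphatidate acyltransferase LPAAT AT3G57650 had 6654 and 4564, and GPAT9, which starts the backbone, had 1809 and 1334. DGAT2, with 1155 and 654, did not reach the minimum. Of 18 genes in the assembly list past the minimum, 3 rose and 7 fell, and the 7 falls were the copies of FAD2 and FAD3, which share that list.

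Among genes for proteins of the oil body surface, those of oleosin and steroleosin rose, as did 3 of 7 caleosin genes past the minimum. All 14 oleosin genes past the minimum rose, with log2-fold changes from 2.60 to 3.82, while 13 further listed oleosin genes were under the minimum. The 6 copies of the seed oleosin AT4G25140 summed to 83741 and 83376 in C2 and to 580303 and 579605 in C3 (2.80, 2.79 to 2.80). AT3G27660 went from 18643 to 231501 (3.63) and AT5G40420 from 8421 to 84630 (3.33). In C1 the 27 oleosin genes together had 82.2 normalized counts. Oleosins took 0.315% of the counts of C2 and 2.33% of those of C3.

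Of caleosin and steroleosin, the enzymes of the same surface, only the caleosins split by gene. CLO1 (AT4G26740), the caleosin of seed oil bodies in *Arabidopsis*, rose in its 3 copies by 3.76 to 3.77, from 5884 to 80084 as a sum. RD20 (AT2G33380), a caleosin of vegetative tissue known for its response to drought, had 8239 and 6991 and had stood at 14833 in C1. Steroleosin, an oil body dehydrogenase, had little RNA at 25 DAF and much at 45 DAF. BnaA02g11570D had 103 and 101 in the columns of C2 and 44244 and 44199 in those of C3, a change of 8.76 (8.50 to 9.01). All 6 steroleosin genes past the minimum rose, from 6.70 for BnaC03g28790D to 8.93 for BnaA03g23490D.

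**Figure D3:**
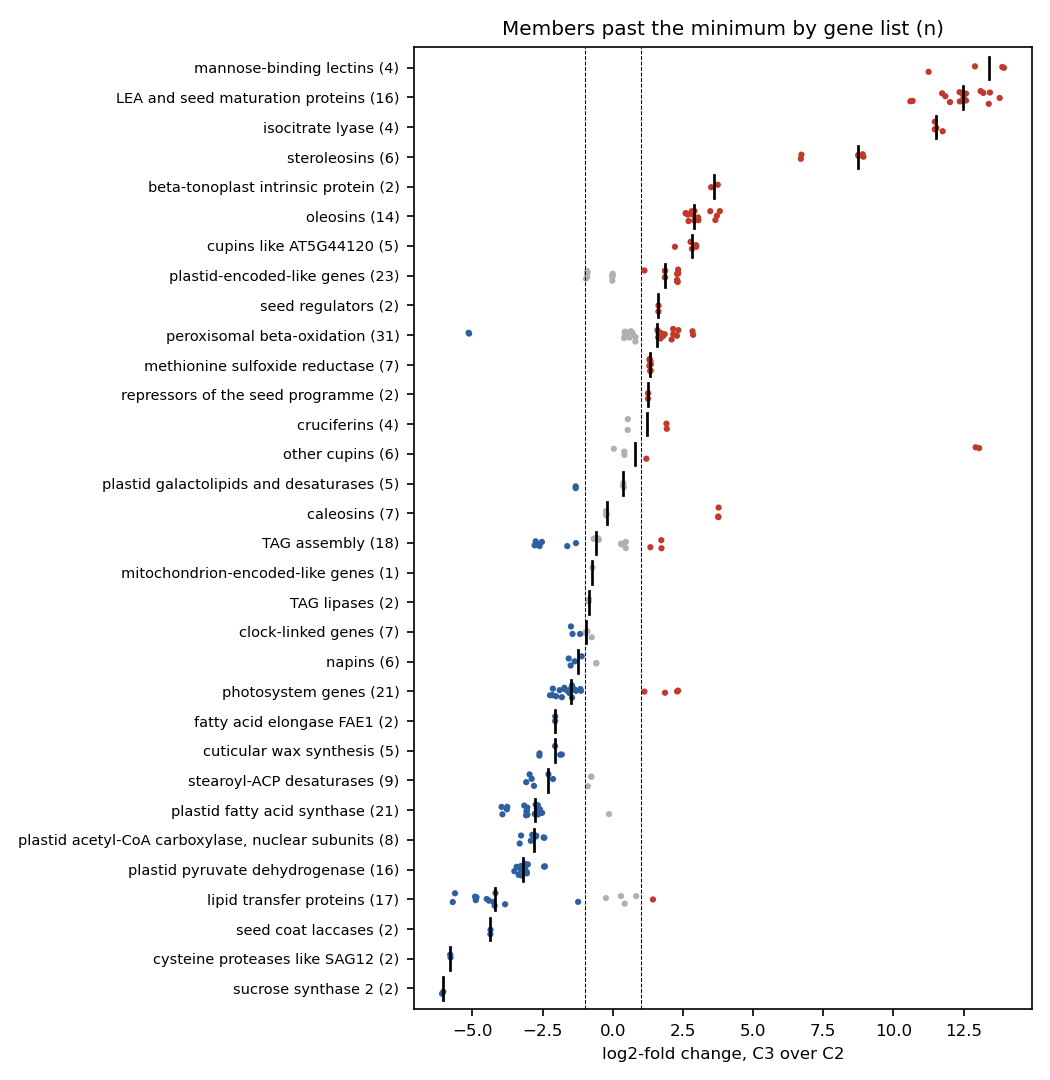
Log2-fold change, C3 over C2, of the members past the minimum in each gene list, with their number after the name; red points rose, blue points fell, grey points did neither, black bars are medians, and vertical jitter has no meaning. Lectins and LEA proteins lie beyond 10, plastid fatty acid lists lie between -4 and -2 with few exceptions, and the beta-oxidation and lipid transfer lists hold members on both sides.

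Storage protein genes moved apart. Napin, the small storage albumin of *Brassica* seeds, fell in 4 of 6 genes past the minimum, BnaC01g43250D from 238748 and 236773 in the columns of C2 to 93331 and 92438 in those of C3 (-1.36). The pair BnaC07g40770D and BnaA03g48490D had -0.59 and -0.58 and was not called. Several genes outside the napin list, with no named counterpart, also held some of the largest counts of C2 and fell. They included BnaC01g19330D (228961 to 80722, -1.50) and BnaA01g16180D (218453 to 77438, -1.50). Whether these are napin genes was not tested. Cruciferin 3 rose from 101949 to 387583 in BnaA01g08350D (1.93) and from 95609 to 360329 in BnaC01g09900D (1.91), whereas cruciferin 2 had 0.54 in BnaA10g02240D and 0.53 in BnaC05g02160D. The 5 cupin genes like AT5G44120, a globulin, rose by 2.22 to 2.98, and BnaA06g36310D, which reached 405958, had the largest count of C3. The vicilin-like cupin AT3G22640 went furthest. BnaA01g24560D had 9.78 and 8.91 in the columns of C2 and 79974 and 79056 in those of C3, a change of 13.06 (12.23 to 13.88), and BnaCnng28630D had 12.93. The study chose these storage protein genes on these libraries, which holds for the LEA, lectin, isocitrate lyase, tonoplast intrinsic protein, protease, laccase, photosystem, plastid-like, methionine sulfoxide reductase and clock-linked lists as well, so none of their counts is independent evidence of a direction.

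LEA and seed maturation genes were at the edge of detection at 25 DAF. All 16 listed genes rose, by at least 10.61 on the log2 scale, from a summed count of 52.0 in C2 to 458392 in C3. BnaC04g47570D, like AT2G41280, had 5.70 and 8.91 in the columns of C2 and 81437 and 80935 in those of C3 (13.44, 12.51 to 14.37). BnaA05g34530D, like the stress induced LEA gene AT2G40170, went from 3.65 to 19292 (12.37, 11.08 to 13.66). BnaC03g23240D had no read above the constant in C2 and 17369 normalized counts in C3, at least 5790-fold higher than the floor of 3 counts, and 2 of the 16 folds are such lower bounds. A further 7 genes had fewer than 4 reads in C2 and a level under the floor, so that 9 of the 16 changes rest on it. The median was 12.48 with these genes at the floor and 13.24 with the ratios as counted. BnaC04g48420D, 1 of the 7, went from 2.44 to 42396, a log2 ratio of 14.09 as counted (12.53 to 15.64) and of 13.79 against the floor. The 4 mannose-binding lectin genes like AT3G21380 behaved alike, with BnaC01g43710D at 7.71 in C2 and 59191 in C3 (12.91) and BnaA06g09710D at 2.84 and 47086 (14.02 as counted, 12.57 to 15.47). In C2, 3 of the 4 were under the floor.

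The 20 largest rises, of which 8 rest on the floor and cannot be ranked among themselves, all had a counterpart in the study's tables, which list top-ranked genes of these same comparisons. They comprised 13 LEA or seed maturation genes, 3 lectin genes, 2 vicilin-like cupin genes, 1 isocitrate lyase gene and 1 glycine-rich protein gene, BnaA09g18220D, which went from 6.50 to 38761 (12.54, 11.56 to 13.52). A beta-tonoplast intrinsic protein, the water channel of protein storage vacuoles, rose from 853 to 11420 in BnaC05g13770D (3.74) and from 700 to 7963 in BnaA06g12030D (3.51).

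Genes of fatty acid breakdown were divided. Of 37 genes of TAG and fatty acid degradation past the minimum, 16 rose and 4 fell (median 0.70). Isocitrate lyase, an enzyme of the glyoxylate cycle that turns oil into sugar in seedlings, had 8.15 and 8.91 in the columns of C2 for BnaC03g42310D and 24409 and 24170 in those of C3 (11.48, 10.62 to 12.34). The 4 copies summed to 30.9 and 92294. CTS, the transporter that brings fatty acids into peroxisomes, rose from 4705 to 15554 (1.72). Of 31 peroxisomal beta-oxidation genes past the minimum, 16 rose and 2 fell, with a median of 1.59, although the median was 0.70 with scaling by total counts and 0.98 with size factors taken from abundant genes.

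Within beta-oxidation the isoforms parted. The acyl-CoA oxidase for long chains in *Arabidopsis*, ACX2, rose from 971 to 5343 (2.46), while ACX1 had 3695 and 5013 and ACX4, for short chains, had 9234 and 13239. The multifunctional protein MFP2 rose from 8759 to 40692 (2.22) in each of 5 copies, and AIM1, its relative, had 12049 and 19984 (0.73) with 0 of 6 copies called. The thiolase KAT2, which removes acetyl-CoA in seedlings of *Arabidopsis*, had 20111 and 20004 in the columns of C2 and 66010 and 64743 in those of C3 (1.70, 1.68 to 1.73). KAT5, another thiolase, fell from 6627 to 190 (-5.13, -5.35 to -4.91), and its 2 copies were the 2 falls of the list. The peroxisomal acyl-CoA synthetases LACS7 and LACS6 rose from 17.2 to 2949 (7.43, 6.82 to 8.05) and from 986 to 2402 (1.28).

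TAG lipases went both ways. SDP1 (AT5G04040), the main oil lipase of *Arabidopsis* seedlings, rose from 1048 to 3328 as a sum of 6 copies (1.67, 1.57 to 1.76). AT5G14180 rose from 142 to 2646 (4.22) and AT3G57140 from 308 to 1874 (2.60). AT3G14360 had 3086 and 1714 (-0.85), and its copies were the 2 lipase genes past the minimum. AT1G23330 went from 1545 to 719, a fall of 1.10 that was lost with size factors from abundant genes. Phospholipase D alpha (AT3G15730), which cleaves membrane lipid, rose from 3613 to 14880 (2.04).

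For lipoate synthase, the E3 subunit and acetyl-CoA carboxylase the plastid form fell and the mitochondrial or cytosolic form did not. Plastid lipoate synthase (AT5G08415) went from 2355 to 418 (-2.49) and the mitochondrial one (AT2G20860) had 2114 and 2354 (0.16). For E3, a subunit of pyruvate dehydrogenase, the plastid gene AT3G16950 went from 5427 to 561 and the mitochondrial gene AT1G48030 had 6083 and 3810 (-0.67). Homomeric acetyl-CoA carboxylase, the cytosolic form, had 2442 and 3683 for AT1G36160 (0.59), beside the falls of the plastid form above. None of 6 genes of mitochondrial fatty acid and lipoic acid synthesis and none of 10 genes of sphingolipid synthesis past the minimum was called, against 44.5% of all genes.

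Other counterparts parted as well. ATP citrate lyase makes cytosolic acetyl-CoA from citrate with A and B subunits. The A subunit gene ACLA-2 (AT1G60810) fell from 13081 to 2540 (-2.36, -2.43 to -2.30), ACLA-3 (AT1G09430) rose from 2148 to 5392 (1.33, 1.26 to 1.40), and the B subunit AT5G49460 fell from 19306 to 2100 (-3.20). Of the inositol phosphate synthases, which supply inositol for phytate and membranes, MIPS1 (AT4G39800) fell from 8108 to 1571 (-2.37) and MIPS2 (AT2G22240) had 12738 and 19003 (0.58). The acyl-CoA synthetase LACS8 (AT2G04350) rose from 2991 to 9138 (1.61), while LACS1 (AT2G47240), which serves wax and cutin, fell from 3353 to 287 (-3.55).

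**Figure D4:**
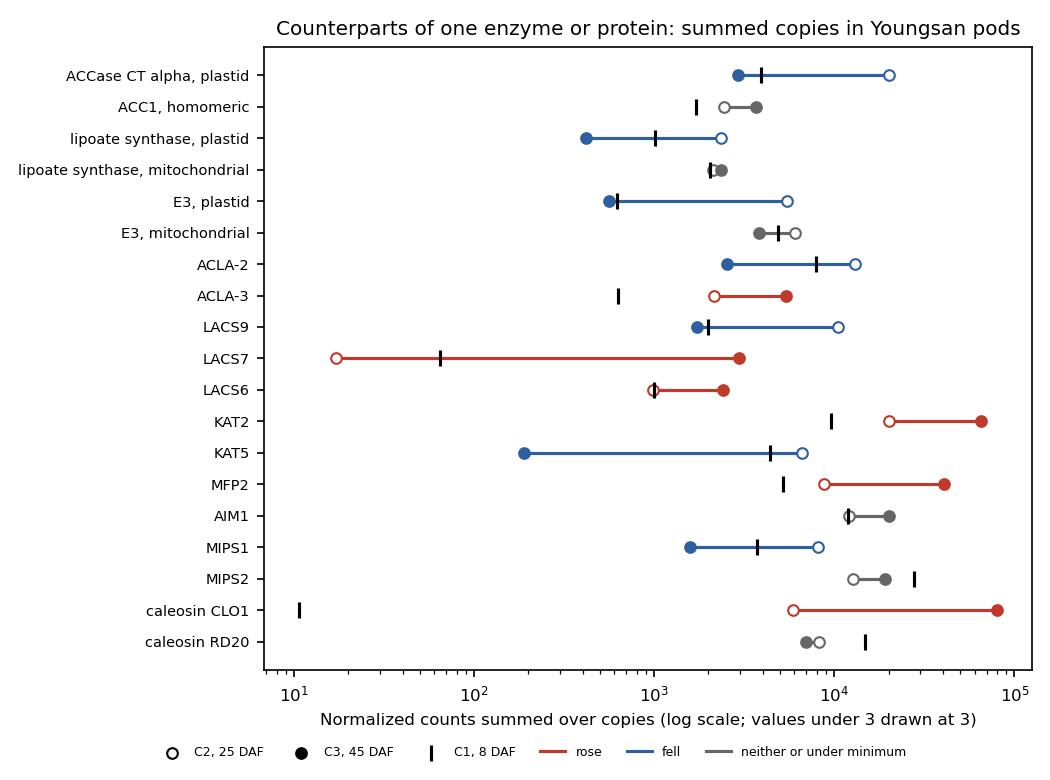
Normalized counts summed over copies in C2 (open circles), C3 (filled circles) and C1 (ticks), on a log axis, for counterparts of the same enzyme or protein. KAT2 and KAT5, ACLA-2 and ACLA-3, and LACS7 and LACS9 move in opposite directions, and the mitochondrial E3 and lipoate synthase move by less than 2-fold.

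Fatty acid elongation and wax synthesis had more falls than rises. Of 46 genes of fatty acid elongation and wax synthesis past the minimum, 30 fell and 5 rose (median -2.36). The 5 genes of the wax list past the minimum, which were copies of the reductases KCR1 and CER10 of the elongase, all fell (-2.61 to -1.82). Sums of other wax genes fell further. CER4, which makes wax alcohols, fell from 3815 to 54.9 (-6.12, -6.52 to -5.71), MAH1, which hydroxylates wax alkanes, from 2370 to 94.3 (-4.66), and CER1, an alkane synthesis gene that did not reach the minimum, had 1091 and 51.5. The wax transporter CER5 fell from 2314 to 352 (-2.72). CER1 had 6250 and MAH1 30192 in C1, so that for both the level went down at each stage. The sums of 2 genes named for wax synthesis rose instead, CER7 (AT3G60500), a ribonuclease subunit, from 965 to 3017 and AT3G27670 (resurrection protein) from 989 to 2551.

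Lipid transfer proteins, small secreted proteins that carry lipids to the surface, had 12 falls and 1 rise among 17 genes past the minimum (median -4.21). BnaC02g10060D, like AT5G59310, fell from 5612 to 108 (-5.70), the furthest in the list. The rise was BnaC07g11810D, like AT1G27950, from 601 to 1622 (1.43). Copies of 1 gene differed here: of the 6 copies of AT2G38540 past the minimum, 4 fell by 3.83 to 4.88 and BnaAnng27610D and BnaC04g06760D had -0.24 and 0.30. AT2G38530, its neighbor in the family, had 5675 and 8702.

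Seed coat and green tissue genes were lower at 45 DAF. The laccase genes like AT5G48100, which oxidize flavonoids in the seed coat of *Arabidopsis*, fell from 8187 to 401 in BnaC02g38340D and from 7898 to 385 in BnaAnng08030D (log2-fold changes of -4.35 and -4.36). Of 21 photosystem genes past the minimum, 17 fell and 4 rose. The 17 falls, nuclear genes such as BnaA07g12480D (12324 to 2811, -2.13), lay between -2.23 and -1.13. The 4 rises were genes that resemble plastid genes, such as BnaC05g32150D, like a PsaA/PsaB gene (1482 to 7265, 2.29).

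Genes that resemble plastid-encoded genes are counted here under nuclear identifiers, and many share their counts exactly. Of 23 such genes past the minimum, 13 rose and 0 fell (median 1.86), and the 32 listed genes together held 0.259% of the counts of C2 and 0.307% of those of C3. The 13 rises were copies like plastid genes of the photosystems, of which the photosystem list above holds the 4 named there, the 5 copies like rps12 had -0.95 to -0.90, and the 5 like rbcL had -0.01 to 0.00. The same genes had medians of 5.52 from 42 to 43 and 9.67 from 52 to 53. Whether plastid RNA entered these libraries to different degrees was not tested.

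Large falls outside the lipid table included the cysteine protease genes like SAG12, a marker of leaf senescence in *Arabidopsis*. BnaA06g40240D had 53291 and 52977 in the columns of C2 and 982 and 938 in those of C3 (-5.79, -5.89 to -5.69), and BnaC07g18750D had -5.78. In C1 both had stood under 6 normalized counts, so their high level belonged to 25 DAF. The furthest falls were those of 2 dirigent-like genes, a family that guides the coupling of lignin precursors. BnaC03g45710D went from 4224 to 3.36 (-10.30, -11.85 to -8.74) and BnaA03g38820D from 4223 to 4.48 (-9.88, -11.24 to -8.52), on 2 and 3 reads a column in C3. The gene BnaAnng25140D, of unknown function and like AT4G37900, went from 6648 to 25.2 (-8.04). Among the 20 largest falls, 17 had no counterpart in the tables used, and the largest of these were BnaCnng30140D (20184 to 42.0) and BnaA04g24790D (20383 to 42.5). Cinnamate hydroxylase (AT2G30490), an enzyme of phenylpropanoid synthesis, fell from 36164 to 10059 in sum (-1.85) and in each of 6 copies.

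The subgenomes had similar shares of calls, and copies of a lipid gene mostly had the same call. *B. napus* carries an A genome from *B. rapa* and a C genome from *B. oleracea*. Of 3443 A genome genes past the minimum 803 rose and 716 fell, and of 3438 C genome genes 811 rose and 734 fell, that is 44.1% and 44.9% called. Of 79 lipid gene families with several copies past the minimum, 20 held rises and no fall, 33 held falls and no rise, 26 held no call, and 0 held both. Among these families, 1 held called and uncalled copies, the lipid transfer protein AT2G38540. Of the 6899 genes, 2216 (32.1%) had another gene past the minimum within 5% of their value in all 18 columns. Whether these partners are copies of each other was not checked. Reads of near-identical copies cannot be assigned with certainty, and the part of this in the likeness was not tested. Copies are therefore not replicates of each other.

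The same interval in the transgenic lines shares no library with C2_C3 and is given beside it. The libraries at 45 DAF differed in make-up: the 20 largest genes took 9.15% of the counts in C3, 38.7% in 43 and 18.1% in 53. Of the 1617 rises in Youngsan, 780 were at least 2-fold higher from 42 to 43 and 1020 from 52 to 53, 714 in both. Of the 1456 falls, 836 and 1413 were at least 2-fold lower, 830 in both. Over all 6899 genes, 13.1% were at least 2-fold higher and 13.6% at least 2-fold lower from 42 to 43, against 15.9% and 32.8% from 52 to 53. The larger the change in Youngsan, the more often a change of at least 2-fold in the same direction was found in the others. Among rises of 4 or more on the log2 scale the counts were 315 and 317 of 318, and among falls of that size 152 and 152 of 152. Among rises of 1 to 2 they were 153 and 329 of 900, and among falls of that size 285 and 777 of 813. The limit was fixed at 2-fold, so a large change passes it more easily than a small one. In CpFatB5 lower values reached further, since 518 of 766 genes that were lower by 0.5 to 1 in Youngsan were at least 2-fold lower from 52 to 53. The median over all 6899 genes was -0.44 from 52 to 53, against 0.03 in Youngsan and -0.18 from 42 to 43. The part of this offset in the 518 genes was not tested. All 90 genes that came up from under 10 to 1000 or more in Youngsan were at least 2-fold higher at 45 DAF in both other lines. The same switch, from under 10 to 1000 or more, was found for 24 of them from 42 to 43 and for 79 from 52 to 53.

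The size of the changes differed between lines for several groups, without a test of the difference. For SUS2 the log2-fold change was -6.06 in Youngsan, -1.66 from 42 to 43 and -7.34 from 52 to 53. FAD3 had -2.64, 0.01 and -4.05, FAE1 had -2.05, 0.77 and -3.04, and KAS I had -3.07, -1.27 and -4.14. DGAT1 had 1.64, 1.48 and 1.66, and the oleosin AT4G25140 had 2.80, 2.73 and 3.24, so these values lay close together. AT1G67690, like a zincin metalloprotease, had 1082 and 19040 in Youngsan (4.14), with -0.11 from 42 to 43 and 4.07 from 52 to 53. The 27 genes that fell in Youngsan and were at least 2-fold higher in 53 had 4.16 to 4.93 from 52 to 53 and at least 0.88 from 42 to 43. None of the 27 had a counterpart in the tables used, and 19 of them carry identifiers of chromosome C09.

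**Figure D5:**
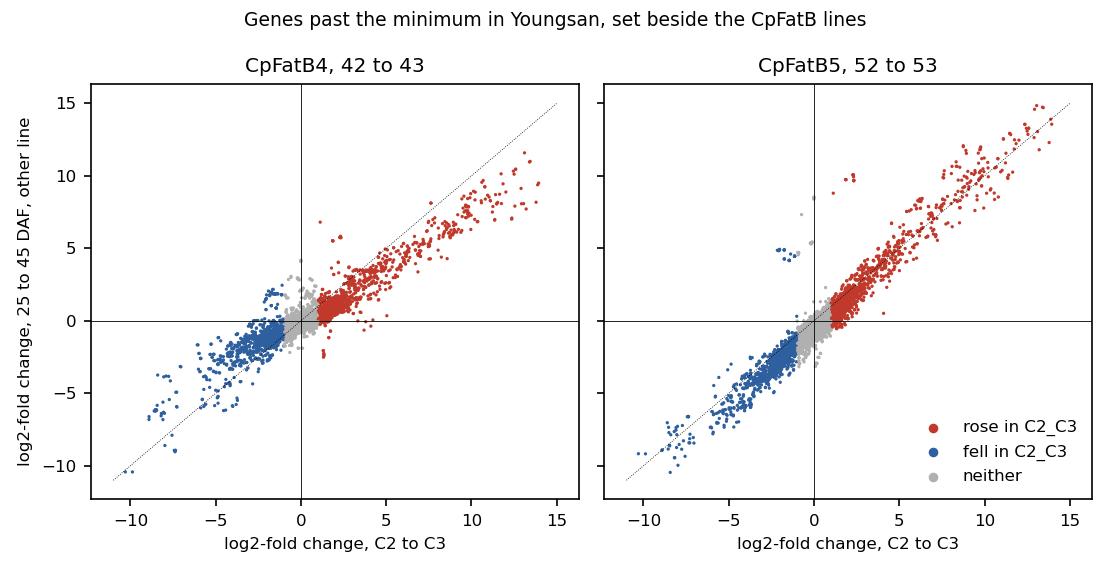
Log2-fold change from 25 to 45 DAF in CpFatB4 (left) and CpFatB5 (right) against that in Youngsan, for the 6899 genes past the minimum in Youngsan; red rose and blue fell in C2_C3, and the dotted line marks equal change. Of the 318 rises beyond 4, 315 on the left and 317 on the right are at least 2-fold higher, and a small group of blue points lies above 4 in the right panel.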

How the data were processed

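Whole pods of 3 lines at 3 stages were measured by RNA-Seq (TruSeq, paired reads), with 1 library for each of the 9 combinations. The authors trimmed reads with SolexaQA, aligned them to the Genoscope *B. napus* coding sequences with Bowtie2 2.1.0, allowed few mismatches and counted reads per gene. How reads that match several genes were counted is not given in the sources used here. In C2 and C3, however, each column sums to more counts than the clean reads the study reports for that library. Some reads were therefore counted more than 1 time, and sums over copies and shares of counts can include such repeats. The deposited table holds 18 raw columns of whole-number counts, whose unit is recorded as other because the numbers carry separators, and 13 columns of rounded values that the authors scaled with DESeq, recorded as a score. The raw columns were used, and values recomputed from them lay within 0.500 of the deposited scores.

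Size factors were medians of ratios over all 18 raw columns. Levels were means of the 2 columns of a library, values under 3 were set to 3 for fold changes, and a call needed a 2-fold change and a mean of 1000. With 1 library a stage no test was run. Copies were summed by *Arabidopsis* ortholog, and 539 such sums were made. Genes named were taken from the most abundant, the largest rise and the largest fall of each list, all members of short lists, and the 20 largest rises, falls and levels. Sums named in the text, counterparts set side by side and AT1G67690 were chosen after their values were seen, and the members and lists were chosen with earlier results of these data known. The code was tested on simulated data. Calculations ran in Python 3.11.15 (pandas 2.3.3, numpy 2.4.6, scipy 1.17.1), and matplotlib 3.10.9 drew the figures. Alternatives to scaling, columns, minimum and fold were run. A count is not an independent molecule, so intervals cover counting error only.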

Additional observations from a re-analysis of the deposited data

Results flagged for a closer look

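Both results below moved in opposite directions in Youngsan and in CpFatB4, with 1 library a stage in each line, and the difference was not tested. The 7 genes like methionine sulfoxide reductase AT5G07470, an enzyme that repairs oxidized methionine, rose in Youngsan, with a log2-fold change of their sum of 1.33 (4619 to 11628 normalized counts). From 42 to 43 the sum had a log2-fold change of -2.27. The 8 listed napin genes had a sum that fell by 1.40 on the log2 scale in Youngsan (684501 to 259280) and had a log2-fold change of 1.99 from 42 to 43. In CpFatB5 the log2-fold changes of the same sums were 0.68 and -2.10. The 20 largest genes took 38.7% of the counts in 43, against 9.15% in C3, and the part of this in both values was not tested.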

How the results depend on the processing

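No paired analysis was possible because no line was sampled more than 1 time a stage. The count of 3073 calls, 1617 rises and 1456 falls depended most on the minimum. It was 10674, 5339 and 5335 with a minimum of 200, and 27999, 12405 and 15594 with a minimum of 10. With the minimum of 1000 applied to the higher library it was 4643 calls with 2504 rises, and with the minimum applied to the mean of all 9 libraries there were 1071 rises. A 4-fold limit left 1360, 717 and 643. No scaling turned the direction of a called gene. The share of calls that rose was 52.6%, between 46.4% (total counts) and 60.0% (size factors set by genes whose mean reached 1000) under the other scalings, and 41.2% with the minimum over all 9 libraries. The size factors from abundant genes moved the median of genes past the minimum from 0.03 to 0.19, so that changes are relative to that shift. They took 4 of 250 called named genes (the napin gene BnaA03g48460D, the clock-linked gene BnaA08g16610D and the photosystem genes BnaA05g23550D and BnaA08g04820D) and 3 of 138 called sums under 2-fold. The median of the seed regulators, 1.63 from 2 copies of ABI3, was -3.16 with size factors over the 4 columns of C2 and C3. It was -1.39 with members down to a mean of 100. In both settings regulator copies that were under the minimum in the main setting enter the list. The median of the repressors, 1.26 from 2 copies of PICKLE, was 0.18 with members down to 100. Another 465 genes lay within 0.1 of the 2-fold line on the log2 scale.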

Other observations

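Some genes held large counts at both stages without a call. BnaC07g47500D, with no counterpart in the tables used, had 133979 normalized counts in C2 and 121516 in C3 (-0.14), and its columns differed more than those of most genes, with 119421 and 148536 in C2. The 9 lipoxygenase genes like AT3G45140 past the minimum lay between 0.07 and 0.39, and the sum of all 10, which had been 101965 in C1, was 18066 in C2 and 21804 in C3. Among membrane lipid genes, a methyltransferase that makes phosphocholine (AT1G73600) fell from 6704 to 556 (-3.59), and the phosphatidylserine decarboxylase AT4G25970 rose from 1830 to 4072 (1.15). The plastid desaturase FAD5, at 4686 and 6048, was not called.

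The GDSL lipase AT1G54020 fell by 1.92 on the log2 scale in Youngsan (3871 to 1026) and had 2.03 from 42 to 43 and -3.10 from 52 to 53, and the difference between lines was not tested. Both clock-linked families, RNA-binding proteins of the cold and circadian response, were lower at 45 DAF: AT2G21660 fell from 33659 to 14427 (-1.22), and AT4G39260 had 14566 and 7622 (-0.93), close to the limit.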
